A study of Mus musculus with 4 samples.

Results

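The genes described here set the pace of G1, the phase of the cell cycle in which a cell prepares to copy its DNA: the D-type cyclins Ccnd1, Ccnd2 and Ccnd3, the E-type cyclins Ccne1 and Ccne2, the kinases Cdk2, Cdk4 and Cdk6, and the inhibitors Cdkn1b and Cdkn2a. Every probe set whose single gene symbol in the platform annotation was 1 of these 10 genes was taken, whatever its value, which gave 27 of the 45037 probe sets of the table and 10 of the 18193 genes with a single symbol. RNA was taken from E14, a line of mouse embryonic stem (mES) cells kept with serum and leukaemia inhibitory factor (LIF), on 4 Affymetrix arrays of 1 sample each. The 2 control RNAi samples had received the pSuper.puro plasmid, labelled mock RNAi, and the 2 Zfp322a RNAi samples a plasmid expressing an shRNA against Zfp322a, which encodes a zinc finger transcription factor. Both groups were transfected and selected with puromycin, for 3 days by the labels and for longer by the study's array methods, so that the comparison asks which transcripts differed after depletion of Zfp322a in cells that were otherwise handled alike. The study's text calls the control plasmid empty in other experiments and a control shRNA plasmid for the arrays; if it held no hairpin, the expression of a hairpin and the loss of Zfp322a cannot be told apart. The labels do not state whether replicates are separate cultures, and the p-values then cover the spread among the 4 samples alone, which may be technical.

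D-type cyclins respond to growth signals, bind Cdk4 or Cdk6 and start the phosphorylation of the retinoblastoma family of pocket proteins. This frees E2F transcription factors, which drive the genes for E-type cyclins and for DNA replication, and E-type cyclins bind Cdk2 to carry the cell into S phase. Cdkn1b encodes p27Kip1, which holds cyclin E and Cdk2 complexes inactive, and Cdkn2a encodes p16Ink4a, which blocks Cdk4 and Cdk6, as well as p19Arf, a protein of the p53 pathway that is read from another first exon. mES cells are known for a short G1 phase, for active cyclin E and Cdk2 complexes and for little use of D-type cyclins, and G1 lengthens as they differentiate.

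Values are log2 levels after RMA, the authors' summary of the probes of a probe set, so that a difference of 1 is a doubling. A probe set was said to have risen or fallen where limma, fitted over all probe sets of the table with a Benjamini-Hochberg adjustment, gave an adjusted p under 0.05, and each adjusted p below is from that fit. Levels of different probe sets were not read as relative amounts of transcript, since each has its own probes. Where a probe set is called bright or dim, or placed by percentile or median level, only its signal within the table is meant. Names that end in _a_at, _s_at or _x_at mark probe sets whose probes match several transcripts of a gene, several genes or further sequences, respectively. Those in _s_at and _x_at are less specific to a gene, and those in _a_at only to a transcript of it.

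The knock-down was seen first in its target. Zfp322a probe set 1452374_at read 8.82 and 8.89 in control RNAi and 7.08 and 6.89 in Zfp322a RNAi, and 1439035_at read 8.75 and 8.84 in control RNAi and 7.53 and 7.13 in Zfp322a RNAi. Both fell, to 27.4% and 36.2% of control on the linear scale (limma adjusted p = 9.35e-04 and 0.00220). The labels do not say which of the study's 2 hairpins was used for the arrays. The target-matching arms of both are shown because they define the treatment that every comparison here rests on.
Zfp322a shRNA-1: acagaggagctccattata
Zfp322a shRNA-2: acttagcacgaatgtgtga

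The arrays of a group correlated at r = 0.998 over all probe sets in both groups, and arrays of different groups at 0.989 to 0.990. The ES cell markers Pou5f1, Nanog, Sox2 and Zfp42 were among the brightest probe sets on every array and did not pass the test. Of 12 probe sets of 8 ES cell markers 4 fell, where 9.47% of all probe sets did, and 0 rose, where 10.6% of all did. Those that fell, by 0.41 to 0.94, were 2 of 3 of Utf1, 1 of 3 of Esrrb and that of Tdgf1. The mean log2 level over the list was 10.8 to 10.9 in control RNAi and 10.6 in Zfp322a RNAi. Of 23 probe sets of 12 fibroblast or feeder markers 20 lay below the median level of the table. Those of Col1a1, Col1a2, Col3a1, Dcn, Lum and Postn were among them. The 3 above it were Fn1 1426642_at, Fn1 1437218_at and Thy1 1423135_at, at percentiles 97.6, 84.7 and 63.1. The list's mean log2 level was 5.08 to 5.10 in control RNAi and 5.00 to 5.05 in Zfp322a RNAi. Twist1 rose, while Thy1 and 1 of the Fn1 probe sets fell. The part of these shifts in the results on G1 genes was not tested. In RNA of whole cultures, fewer cells of a kind and less RNA per cell cannot be told apart.

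Cyclin D2 and cyclin E2 transcripts were up-regulated upon Zfp322a RNAi, whereas cyclin D3, 1 cyclin E1 probe set, 1 Cdk6 probe set and both inhibitors, Cdkn1b and Cdkn2a, included probe sets that were down-regulated. Of the 27 probe sets 8 rose, where 10.6% of all probe sets did, 6 fell, where 9.47% of all did, and 13 did not pass. Of the 8 that rose, 6 belonged to Ccnd2 and were not independent readings, and the other 2 were of Ccnd1 and Ccne2. By the study's own rule of a 1.5-fold change, which carries no test, 7 were higher (4.67% of all probe sets) and 3 were lower (2.64% of all), and these 10 had all passed limma as well. The values of the 2 groups did not overlap in 22 of the 27, where they did not in 57.5% of all probe sets. The changes ran from -0.90 to 1.69 around a median of -0.04, beside a median of -0.03 over the table, and their median size was 0.34, beside 0.15 over the table. These figures for the table cover dim probe sets too, while 20 of the 27 lay at or above its median level. In a fit of the 22530 probe sets at or above that level, 10242 passed, with 5 members higher and 7 lower. The part of signal level in the members' counts and sizes was not tested. When any 1 array was left out, so that the spread came from the other group alone, 0 of the 45037 probe sets passed, with 10572 to 11509 at an unadjusted p under 0.05. The 14 called members then kept their direction, moved by at most 1.34 times and had adjusted p values of 0.110 or more.

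**Figure D1:**
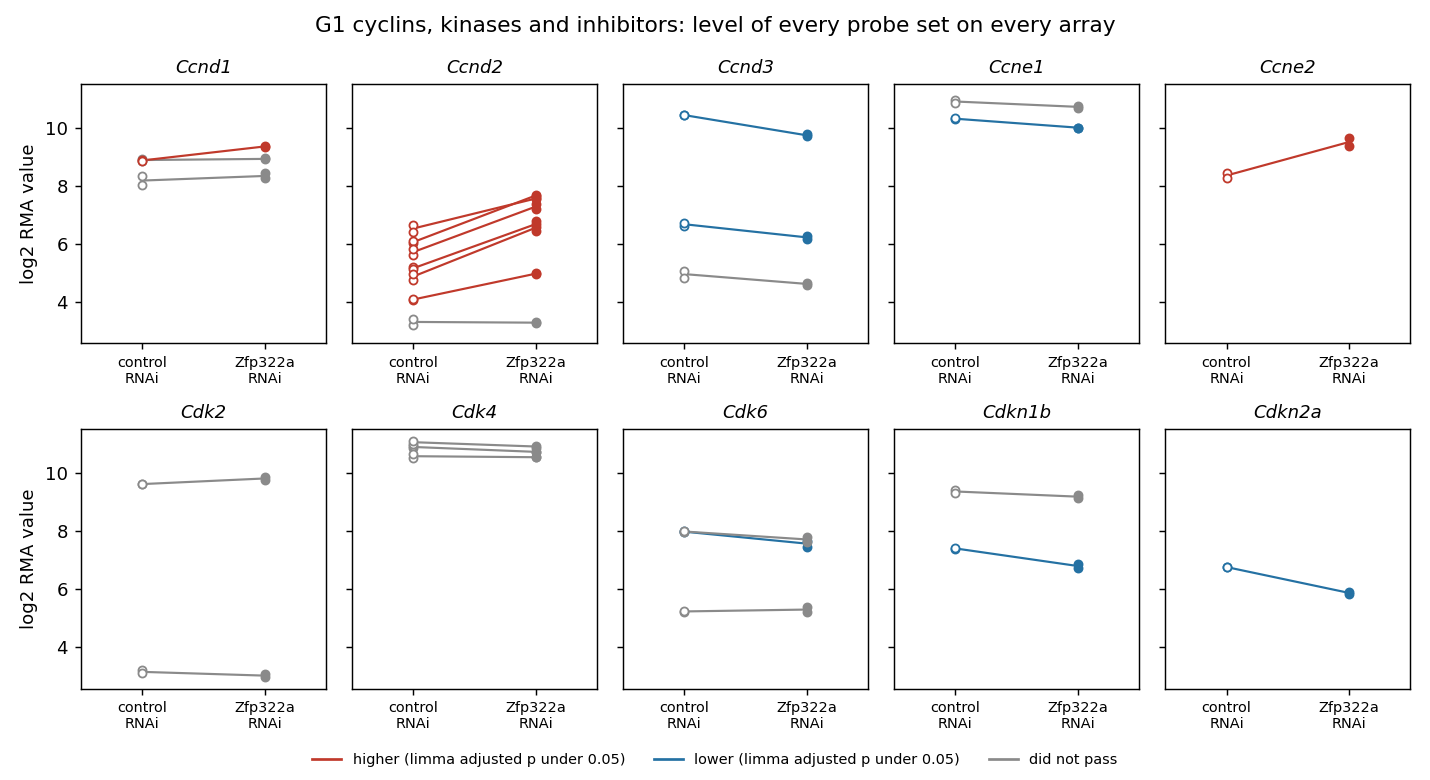
Each panel shows 1 gene, with the log2 RMA value of each of its probe sets on the y axis for the 2 control RNAi arrays (open points) and the 2 Zfp322a RNAi arrays (filled points); lines join the group means and are coloured by the limma call. The 6 rising lines of Ccnd2 and the falling lines of Ccnd3, Cdkn1b and Cdkn2a stand out against the flat lines of Cdk4.

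Ccnd2, which encodes cyclin D2, was the gene with the greatest change among the 10. Probe set 1434745_at read 6.01 and 6.10 in control RNAi and 7.69 and 7.65 in Zfp322a RNAi. Probe set 1448229_s_at read 4.76 and 4.97 in control RNAi and 6.67 and 6.44 in Zfp322a RNAi. The groups were far apart in these probe sets, with the difference many times the spread within a group. The rises were 1.62 ± 0.08 and 1.69 ± 0.12 (log2 change ± SE, n = 2 arrays a group), or 3.06-fold and 3.23-fold (limma adjusted p = 9.35e-04 and 0.00123). The larger ranked 51st among the rises of all 45037 probe sets.

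The remaining Ccnd2 probe sets rose as well, with 1 exception. Probe set 1430127_a_at went from 5.18 and 5.12 to 6.77 and 6.59, a rise of 1.53 ± 0.09, and 1455956_x_at from 5.60 and 5.82 to 7.38 and 7.19, a rise of 1.58 ± 0.11. Probe set 1416122_at read 6.65 and 6.40 in control RNAi and 7.57 and 7.56 in Zfp322a RNAi, a smaller rise of 1.04 ± 0.10. Probe set 1416123_at read 4.05 and 4.09 in control RNAi and 4.99 and 4.94 in Zfp322a RNAi, a rise of 0.90 ± 0.08. In all 4 every Zfp322a RNAi array exceeded every control RNAi array, and limma adjusted p values were 0.00105 to 0.00240. The exception was 1416124_at, which read 3.18 and 3.41 in control RNAi and 3.26 and 3.28 in Zfp322a RNAi (change -0.03, 95% interval -0.27 to 0.22, limma adjusted p = 0.896). Its mean level lay at percentile 2.72 of the table, among the dimmest probe sets, and the groups overlapped. Hence 6 of 7 probe sets of Ccnd2 rose, 1.86-fold to 3.23-fold, and they disagreed in size: the 95% interval of 1416123_at ended at 1.08, and those of 1430127_a_at, 1434745_at, 1448229_s_at and 1455956_x_at began at 1.30 or above. Of those that rose, 1416123_at, 1430127_a_at and 1448229_s_at lay below the median level of the table, at percentiles 22.4, 47.0 and 43.4, and the rest above it. The part of signal level in this disagreement was not tested.

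Ccnd1, which encodes cyclin D1, gave a divided reading. Probe set 1417420_at read 8.89 and 8.87 in control RNAi and 9.38 and 9.35 in Zfp322a RNAi, and rose by 0.49 ± 0.08, or 1.40-fold (limma adjusted p = 0.00822). Probe set 1417419_at read 8.87 and 8.92 in control RNAi and 8.95 and 8.92 in Zfp322a RNAi (change 0.04, 95% interval -0.15 to 0.23, limma adjusted p = 0.771). The intervals of these probe sets did not meet, so they disagreed beyond their errors. Probe set 1448698_at read 8.04 and 8.33 in control RNAi and 8.26 and 8.43 in Zfp322a RNAi (change 0.16, 95% interval -0.14 to 0.46, limma adjusted p = 0.427). Its control arrays stood well apart from each other, and the groups overlapped. Averaged over its 3 probe sets, the change of Ccnd1 was 0.23 and missed the threshold (limma adjusted p = 0.0551 in a fit over genes).

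Ccnd3, which encodes cyclin D3, moved the other way. Probe set 1415907_at read 10.46 and 10.44 in control RNAi and 9.72 and 9.78 in Zfp322a RNAi, a fall of 0.70 ± 0.08 on the log2 scale to 61.6% of control (limma adjusted p = 0.00305). Probe set 1444323_at read 6.62 and 6.73 in control RNAi and 6.28 and 6.16 in Zfp322a RNAi, a fall of 0.46 ± 0.09 (limma adjusted p = 0.0167). In both, every Zfp322a RNAi array lay below every control RNAi array. Probe set 1438805_at read 5.07 and 4.83 in control RNAi and 4.58 and 4.64 in Zfp322a RNAi, again without overlap, and its change of -0.34 (95% interval -0.59 to -0.09) did not pass (limma adjusted p = 0.0679). All 3 point estimates for Ccnd3 were thus negative, and 2 passed.

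**Figure D2:**
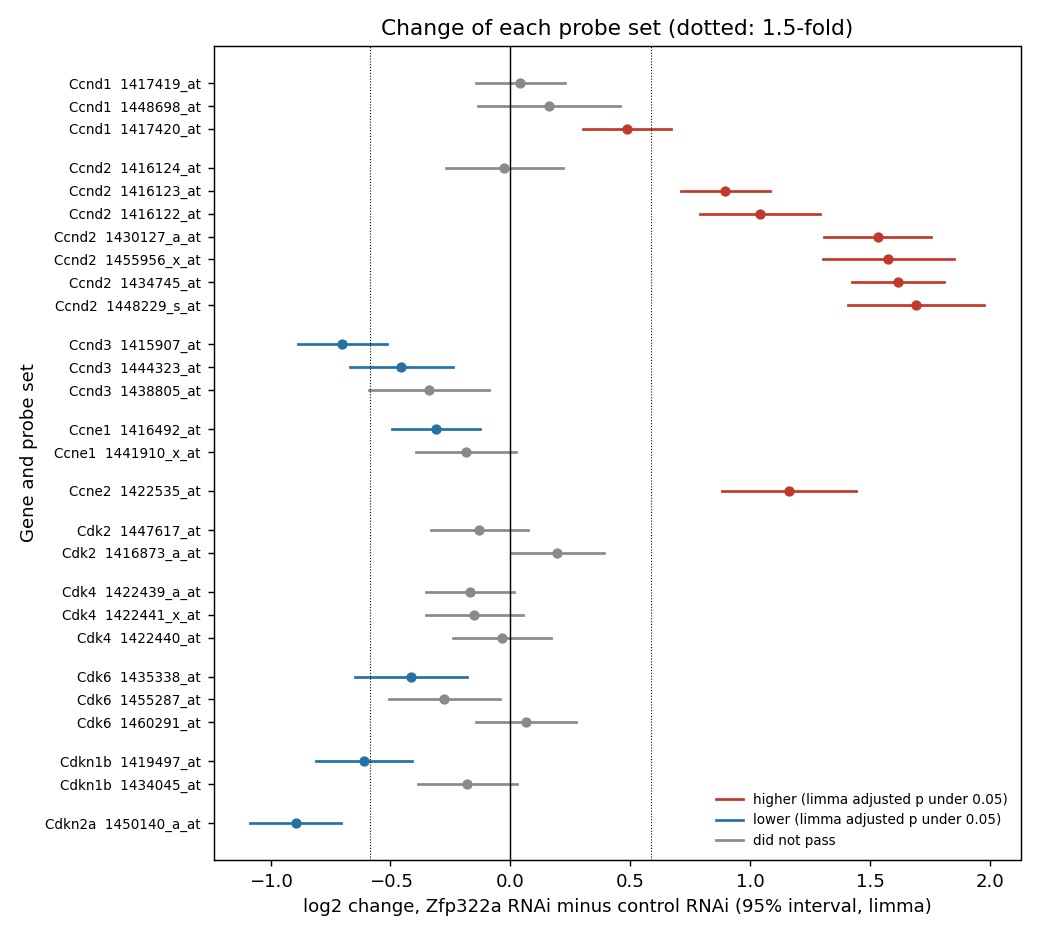
The log2 change (x axis, Zfp322a RNAi minus control RNAi) of each of the 27 probe sets (y axis, grouped by gene) is drawn as a point with its 95% interval from limma, coloured by the call; dotted lines mark a 1.5-fold change. The 6 called Ccnd2 intervals and that of Ccne2 start at 0.71 or above, and those of Ccnd3 1415907_at, Cdkn1b 1419497_at and Cdkn2a end at -0.41 or below.

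The E-type cyclins, the partners of Cdk2 at entry into S phase, also parted. Ccne2 had 1 probe set, 1422535_at, which read 8.44 and 8.28 in control RNAi and 9.65 and 9.39 in Zfp322a RNAi. Both Zfp322a RNAi arrays lay above both control RNAi arrays, and the rise was 1.16 ± 0.11, or 2.23-fold (limma adjusted p = 0.00240). Ccne1 probe set 1416492_at read 10.30 and 10.35 in control RNAi and 10.02 and 10.01 in Zfp322a RNAi. It fell by 0.31 ± 0.08 on the log2 scale, to 80.7% of control (limma adjusted p = 0.0359), a call that ended when each array was centred on its median (change -0.28, limma adjusted p = 0.0530). The other Ccne1 probe set, 1441910_x_at, read 10.98 and 10.86 in control RNAi and 10.69 and 10.78 in Zfp322a RNAi, and its change of -0.19 (95% interval -0.39 to 0.02) did not pass (limma adjusted p = 0.199). The groups did not overlap in either Ccne1 probe set.

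Among the kinases 1 of 8 probe sets fell, where 9.47% of all did, and 0 rose, where 10.6% of all did. Their changes ran from -0.42 to 0.20. The probe set that fell was of Cdk6, a partner of D-type cyclins: 1435338_at read 7.96 and 8.0 in control RNAi and 7.67 and 7.46 in Zfp322a RNAi, a fall of 0.42 ± 0.10 to 75.0% of control (limma adjusted p = 0.0305). Cdk6 probe set 1455287_at read 7.96 and 8.01 in control RNAi and 7.61 and 7.81 in Zfp322a RNAi, without overlap, and did not pass (change -0.28, 95% interval -0.51 to -0.04, limma adjusted p = 0.0988). The last Cdk6 probe set, 1460291_at, read 5.21 and 5.23 in control RNAi and 5.21 and 5.36 in Zfp322a RNAi, so that the groups overlapped (change 0.07, 95% interval -0.14 to 0.27).

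Cdk4, the main partner of D-type cyclins in many cell types, had 3 bright probe sets and none passed. Probe set 1422439_a_at read 10.89 and 10.93 in control RNAi and 10.75 and 10.73 in Zfp322a RNAi (change -0.17, 95% interval -0.35 to 0.01). Probe set 1422441_x_at read 11.02 and 11.13 in control RNAi and 10.89 and 10.96 in Zfp322a RNAi (change -0.15, 95% interval -0.35 to 0.05). The groups did not overlap in these probe sets, whereas in 1422440_at, at 10.52 and 10.66 in control RNAi and 10.56 and 10.55 in Zfp322a RNAi, they did (change -0.04, 95% interval -0.24 to 0.17). Together these intervals reached from -0.35 to 0.17 on the log2 scale. Cdk2, the partner of E-type cyclins, read 9.62 and 9.63 in control RNAi and 9.87 and 9.77 in Zfp322a RNAi at probe set 1416873_a_at (change 0.20, 95% interval 0.00 to 0.39), which missed the threshold after adjustment (limma adjusted p = 0.151). Its other probe set, 1447617_at, read 3.18 and 3.08 in control RNAi and 3.04 and 2.96 in Zfp322a RNAi (change -0.13, 95% interval -0.33 to 0.07), at percentile 0.698 of the table, among the dimmest probe sets.

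Both inhibitors had a probe set that fell and was past the 1.5-fold rule. Cdkn2a, with the single probe set 1450140_a_at, read 6.76 and 6.75 in control RNAi and 5.82 and 5.90 in Zfp322a RNAi. The groups lay far apart, and the fall was 0.90 ± 0.08 on the log2 scale, to 53.8% of control (limma adjusted p = 0.00183), which ranked 240th among the falls of all probe sets. The table does not show whether its probes lie in the p16Ink4a transcript, the p19Arf transcript or the exons they share, so the fall cannot be assigned to either product. Cdkn1b probe set 1419497_at read 7.39 and 7.41 in control RNAi and 6.85 and 6.73 in Zfp322a RNAi, a fall of 0.61 ± 0.08 to 65.5% of control (limma adjusted p = 0.00546). It was just past 1.5-fold, and fell short of it with centred arrays (change -0.58) and without Zfp322a RNAi replicate 2 (change -0.55). Cdkn1b probe set 1434045_at read 9.41 and 9.33 in control RNAi and 9.25 and 9.13 in Zfp322a RNAi, a change of -0.18 (95% interval -0.39 to 0.03) that did not pass (limma adjusted p = 0.206). Their intervals did not meet, so the 2 Cdkn1b probe sets disagreed in size, although both had lower values on every Zfp322a RNAi array.

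**Figure D3:**
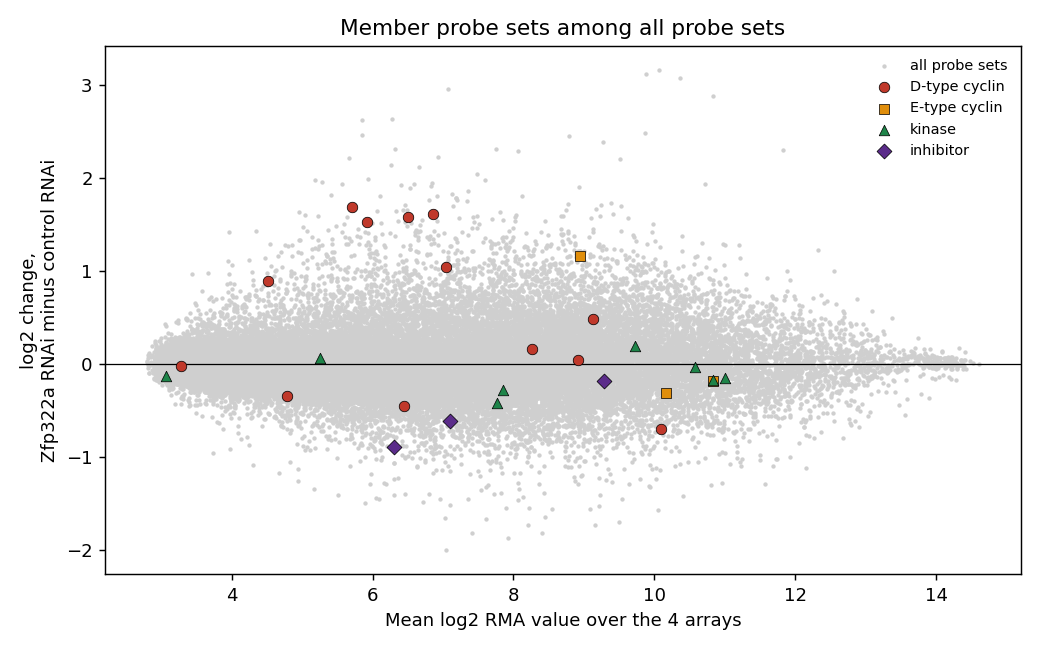
Each grey point is 1 of the 45037 probe sets, placed along the x axis by its average level (log2 RMA, all 4 arrays) and along the y axis by its difference between groups (log2, positive where Zfp322a RNAi was higher); the 27 probe sets of the G1 genes are drawn over them by role. The kinases (triangles) lie within the bulk of the cloud, while 6 D-type cyclin points, all of Ccnd2, lie at 0.90 or higher.

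The promoters of these genes were searched for the letters that E2F factors prefer, since E2F is the output of this pathway, and for the E-box CACGTG, which Myc and related proteins bind. RefSeq promoter windows on GRCm38.p6, 250 bases upstream of a transcript start, were given for 7 of the 10 genes in 9 windows. The genes without a window were Ccnd1, Ccnd2 and Ccne2, the only members with a probe set that rose. An E2F motif (TTTCCCGC or TTTCGCGC or TTTGCCGC or TTTGGCGC, on either strand) was found in 2 of the 9, those of Cdk2 and of 1 Cdkn2a start, and in 1.86% of 32851 promoters. The E-box, which reads the same on both strands, was found in 2 of the 9, those of Cdk4 and Cdk6, and in 6.02% of all promoters. The windows of both Ccnd3 starts, of Ccne1, of Cdkn1b and of the other Cdkn2a start held neither run of letters. A match is a run of letters and not a site shown to be bound. The windows with most to see are printed in the direction of transcription, with matches in capitals: that of Cdk4, whose probe sets did not pass, holds 4 E-boxes whose first bases lie 172, 118, 98 and 11 bases before the start; that of Cdk2 holds the E2F letters on the reverse strand, 140 bases before the start; and the pair of Cdkn2a, the gene that fell most, belongs to different starts, of which the upstream one has an E2F motif 99 bases before it.
Cdk4, chr10:127063285-127063534, plus strand: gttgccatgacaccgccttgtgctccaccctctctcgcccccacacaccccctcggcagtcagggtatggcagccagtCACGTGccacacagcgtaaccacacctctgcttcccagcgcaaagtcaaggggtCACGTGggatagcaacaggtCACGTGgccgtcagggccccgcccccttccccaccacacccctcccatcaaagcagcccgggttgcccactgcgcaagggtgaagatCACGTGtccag
Cdk2, chr10:128705052-128705301, minus strand: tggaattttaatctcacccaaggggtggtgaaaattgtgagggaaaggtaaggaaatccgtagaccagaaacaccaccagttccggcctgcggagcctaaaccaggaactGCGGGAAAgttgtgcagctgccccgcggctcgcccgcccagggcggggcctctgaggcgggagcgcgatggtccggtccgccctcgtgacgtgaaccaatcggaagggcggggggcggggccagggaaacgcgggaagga
Cdkn2a upstream start, chr4:89294620-89294869, minus strand: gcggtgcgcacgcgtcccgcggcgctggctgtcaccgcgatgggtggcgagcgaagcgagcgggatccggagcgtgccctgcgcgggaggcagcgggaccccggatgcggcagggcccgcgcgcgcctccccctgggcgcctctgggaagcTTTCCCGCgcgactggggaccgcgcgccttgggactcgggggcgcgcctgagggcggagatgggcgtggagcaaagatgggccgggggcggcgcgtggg
Cdkn2a downstream start, chr4:89282193-89282442, minus strand: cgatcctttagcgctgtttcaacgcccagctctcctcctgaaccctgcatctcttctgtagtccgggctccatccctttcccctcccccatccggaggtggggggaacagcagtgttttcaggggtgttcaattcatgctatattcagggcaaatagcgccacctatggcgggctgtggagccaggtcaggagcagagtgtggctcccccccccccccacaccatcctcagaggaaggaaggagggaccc

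Other genes of the pathway were read from 5 lists, in all 124 probe sets of 56 genes, of which 21 rose, where 10.6% of all probe sets did, 24 fell, where 9.47% of all did, and 79 did not pass. The median change was -0.03, as over the table, and the median size of a change 0.23, beside 0.15 over the table. Of the 124 probe sets 105 lay at or above the median level of the table. In a fit of the 22530 probe sets of the table at that level alone, 10242 passed in either direction. Of the lists, 28 then rose and 31 fell. Of the further CDK inhibitors (6 probe sets of 5 genes) 1 rose and 0 fell. It was Cdkn2b, the neighbour of Cdkn2a in the genome, which encodes the Cdk4 and Cdk6 inhibitor p15Ink4b. Probe set 1449152_at read 6.95 and 7.0 in control RNAi and 7.49 and 7.40 in Zfp322a RNAi, a rise of 0.47 (limma adjusted p = 0.0112), opposite to Cdkn2a. Cdkn1a, which encodes p21Cip1, did not pass in either probe set (changes -0.03 and -0.18), and neither did Cdkn1c (0.51, limma adjusted p = 0.0662), Cdkn2c (-0.01) or Cdkn2d (-0.23), all named here because the list is short.

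Pocket proteins and their E2F and DP partners, the targets of the kinases, moved both ways. Of 29 probe sets of 13 genes 8 rose, where 10.6% of all probe sets did, and 8 fell, where 9.47% did. Rbl2, which encodes the pocket protein p130 of resting cells, rose in probe sets 1425981_a_at (1.12, limma adjusted p = 0.00218) and 1418146_a_at (0.86, limma adjusted p = 0.0139). Rb1, which encodes the retinoblastoma protein, rose in 1417850_at from 8.27 and 8.37 to 9.11 and 9.06, by 0.77 (limma adjusted p = 0.00281). The largest falls were of Rbl1, E2f1 and Tfdp2. Rbl1, which encodes the pocket protein p107, fell in 3 of 4 probe sets, most by 0.71 in 1425166_at (limma adjusted p = 0.00334), but rose by 0.55 in the other, 1424156_at (limma adjusted p = 0.00571), so that its probe sets disagreed. E2f1, an activating E2F factor, fell by 0.57 in 1417878_at (limma adjusted p = 0.00730), from 7.82 and 7.93 to 7.35 and 7.26, and in 1 of its 2 other probe sets. Tfdp2, a DP partner of E2F factors, fell by 0.53 in 1443962_at (limma adjusted p = 0.00667) and in 1 further probe set, while the other 2 did not pass (changes 0.30 and -0.28).

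Of the genes that activate the kinases (14 probe sets of 5 genes) 1 probe set rose and 2 fell. Over all probe sets 10.6% rose and 9.47% fell. Ccnh, the cyclin of the CDK-activating kinase, rose by 0.50 in 1418585_at (limma adjusted p = 0.0305), while its other probe sets did not pass (changes 0.25 and 0.21). Cdc25a, a phosphatase that removes inhibitory phosphates from Cdk2, fell by 0.80 in 1445995_at (limma adjusted p = 0.0118), while its other probe sets, 1417131_at and 1417132_at, did not pass (changes 0.07 and -0.23). Cdc37, a chaperone partner for Cdk4, fell by 0.36 in 1416819_at (limma adjusted p = 0.0288), and its other probe set did not pass (change -0.34). Of the genes for turnover of cyclins and inhibitors (30 probe sets of 14 genes) 8 rose and 4 fell, beside the same 10.6% and 9.47%. Cul3, the scaffold of a ubiquitin ligase linked to cyclin E turnover, rose in 5 probe sets, most in 1422795_at (7.26 and 7.23 in control RNAi, 8.54 and 8.52 in Zfp322a RNAi), by 1.29, and in 1450756_s_at, by 1.26 (limma adjusted p = 0.00105 for both). Fbxo4, an F-box protein linked to cyclin D1 turnover, rose by 0.75 in 1427121_at (limma adjusted p = 0.0258), while the groups overlapped in its other probe set, 1421543_at (change 0.03). Fbxo31, another F-box protein linked to cyclin D1, fell in 1428926_at and 1417969_at, by 0.47 and 0.44 (limma adjusted p = 0.0406 and 0.0155), and Usp28, a deubiquitinase, fell by 0.43 in 1433982_at (limma adjusted p = 0.0132).

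Of the S-phase and E2F-regulated genes (45 probe sets of 19 genes) 3 rose, 10 fell and 32 did not pass. Over all probe sets 10.6% rose and 9.47% fell. Tk1, the thymidine kinase of S phase, fell by 0.67 in 1416258_at, from 9.40 and 9.49 to 8.79 and 8.77 (limma adjusted p = 0.00379). Mcm6, a subunit of the replicative helicase, fell by 0.55 in 1438852_x_at and by 0.49 in 1416251_at (limma adjusted p = 0.0341 and 0.00810), and its other probe set did not pass (change -0.09). Rrm2, a subunit of ribonucleotide reductase, rose by 0.38 in 1416120_at (limma adjusted p = 0.0184), while its other probe sets did not pass (changes 0.06 and 0.19). Cdk1, the mitotic kinase, rose by 0.33 in 1448314_at (limma adjusted p = 0.0389). Mcm5, another helicase subunit, rose by 0.55 in 1459658_at (limma adjusted p = 0.00708) and fell by 0.30 in 1415945_at (limma adjusted p = 0.0456), so that its probe sets disagreed. The remaining falls were of Mcm7, in 4 of 4 probe sets by 0.325 to 0.405, and of Rrm1, in 2 of 3 by 0.475 and 0.435.

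**Figure D4:**
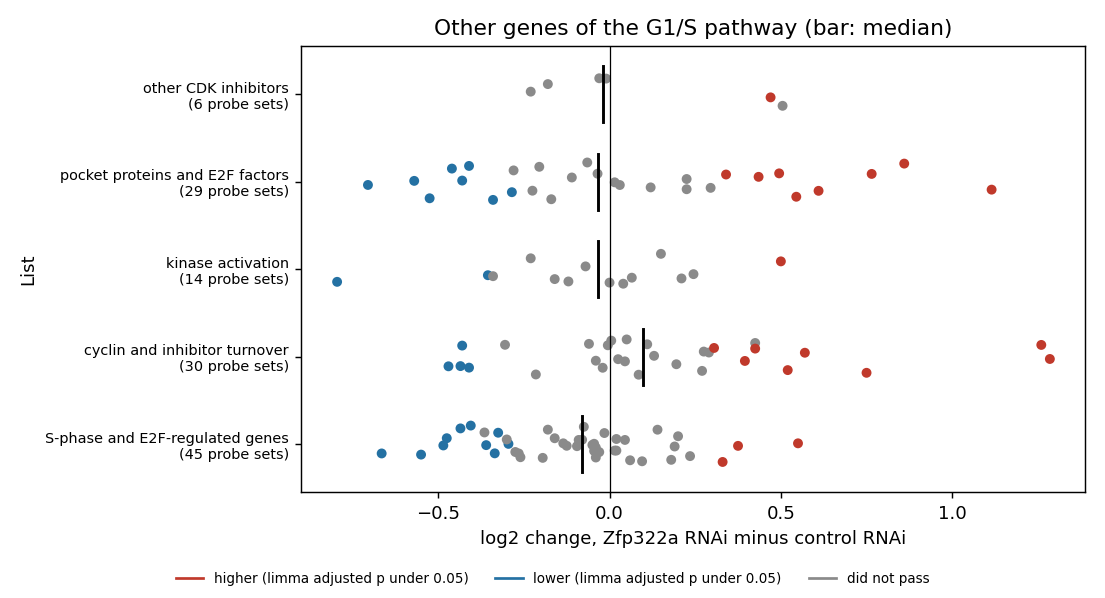
Each point is 1 probe set of the 5 lists (y axis, spread vertically only for legibility) at its log2 change (x axis, Zfp322a RNAi minus control RNAi), coloured by the limma call, and the black bars mark list medians. Called probe sets lie on both sides of 0 in 4 of the 5 lists, and the medians lie between -0.08 and 0.10.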

How the data were processed

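Total RNA of 4 E14 samples (2 control RNAi, 2 Zfp322a RNAi, grouped by sample title) was hybridised to Affymetrix mouse arrays, 1 sample an array. The authors extracted 1 value a probe set with RMA, which corrects background, equalises the distributions of arrays and combines probes (version: not given in the sources used here). Its log2 values were used as deposited, unchanged. Because distributions are made alike, a change common to all transcripts would not be seen. The array medians were 6.11, 6.10, 6.07 and 6.08, and precision is limited by having 2 arrays a group (median standard error of a log2 change 0.09). Scale was read from the values, since the table states none.

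Of 45037 probe sets 34945 had 1 gene symbol, 932 several and 9160 none; those with 1 were named, and symbols were updated through RefSeq (GRCm38.p6) for 34741. A two-sided moderated test of the groups was made in R 4.3.3 with limma 3.58.1 (lmFit, then eBayes; no covariate; degrees of freedom 2 residual and 4.12 prior). P-values were adjusted by Benjamini-Hochberg across the whole table, at a threshold of 0.05. An exact permutation test of 1 probe set could not go below p = 0.333. The study's own 1.5-fold criterion was used without a test. The members and the lists were chosen with earlier results of these data known, and counts over them were not tested against the table. All probe sets of the members are reported, and of each pathway list the 3 largest called changes in each direction, with further ones where named. The procedure was also run on simulated independent values with few changed probe sets, unlike these data, in which 9040 passed. That run does not show how reliable the calls here are. Alternatives were centring, quantile normalization, a mean-variance trend, a filter on dim probe sets, the brightest probe set or the mean of probe sets per gene, leaving out less specific probe sets, a replicate block, no variance moderation and leaving out each array. Promoter windows were taken from RefSeq (GRCm38.p6); none was at hand for Ccnd1, Ccnd2 or Ccne2.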

Additional observations from a re-analysis of the deposited data

How the results depend on the processing

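With a linear model that did not moderate the variances, 71 probe sets of the table passed in place of 9040, with 0 of the G1 genes and 0 of the pathway lists in either direction, and when any 1 array was left out the counts of the table, of the G1 genes and of the lists ranged from 0 to 0, although 13 to 16 members then had an unadjusted p under 0.05. With the replicate number as a block (replicate block) 0 probe sets of the table, 0 of the G1 genes and 0 of the lists passed. The called members then had limma adjusted p of 0.0513 to 0.107. The sample titles number the replicates without saying whether the numbers pair the samples, and the main fit did not pair them. Deviations of same-numbered arrays correlated at 0.0561, which cannot settle the question with 2 arrays a group. With the brightest probe set per gene 5163 of the 18193 genes passed in either direction. Among the 10 members 3 rose and 2 fell (Ccnd1, Ccnd2 and Ccne2, and Ccnd3 and Cdkn2a). Of the 56 pathway genes 10 rose and 13 fell. With the mean of all probe sets per gene 4852 of the 18193 genes passed in either direction. Among the 10 members 2 rose and 4 fell (Ccne1 and Cdkn1b among the falls, at limma adjusted p = 0.0319 and 0.0102). Of the 56 pathway genes 14 rose and 14 fell. With the filter at the median level, and without _s_at, _x_at and _a_at probe sets, 5 members rose, since some of Ccnd2 were then left out. By the 1.5-fold rule 3294 probe sets passed, 3 members were lower, and 7 pathway probe sets were higher and 3 lower. With a mean-variance trend 11620 probe sets of the table passed, and 32 pathway probe sets rose and 31 fell. Cdk2 1416873_a_at, Cdk4 1422439_a_at, Ccne1 1441910_x_at and Cdk6 1455287_at then passed as well (limma adjusted p = 0.0370, 0.0276, 0.0424 and 0.0438). The number of members past 1.5-fold was 9 to 10 without any 1 array. Direction turned in probe sets that did not pass: Ccnd2 1416124_at was 0.005 with centred arrays and -0.14 to 0.09 without 1 array, Cdk4 1422440_at -0.105 to 0.035 and Cdk6 1460291_at -0.01 to 0.14. Centring moved all changes by about 0.03.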

Other observations

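Cyclins and cyclin-dependent kinases other than the members, taken by their symbols after the values above were seen, had 85 probe sets of 34 genes. Of the 85, 24 rose, where 10.6% of all probe sets did, 9 fell, where 9.47% of all did, and 52 did not pass. Their median change was 0.08, and 69 of them lay at or above the median level of the table. The count includes Ccnh, Cdk1, Cdk7 and Ccna2, which were also in the pathway lists. Ccng1, a p53-responsive cyclin, rose by 1.28 ± 0.07 in 1450017_at and by 0.57 in 1420827_a_at (limma adjusted p = 0.00105 and 0.00723), while its other probe set did not pass (0.25). Ccnc, the cyclin of the Mediator kinase module, rose in 4 of 5 probe sets, most in 1454144_a_at (1.28 ± 0.14, limma adjusted p = 0.00323). Cdk8, a kinase partner of cyclin C, rose in 1460389_at (0.46, limma adjusted p = 0.0117). Cdk19 rose in 1455031_at and 1434997_at, by 0.71 and 0.575 (limma adjusted p = 0.00335 and 0.00861). Ccny rose in 5 of 7 probe sets, by 0.38 to 0.98, while 1441283_at and 1452984_at did not pass (change -0.28 in both, limma adjusted p = 0.0787 and 0.0501). Cdk16, which cyclin Y activates, fell in 3 of 5 probe sets, by 0.40 to 0.53. Ccnt2, a cyclin of the elongation factor P-TEFb, was divided: 1435445_at fell by 1.11 (limma adjusted p = 0.00133) while 3 other probe sets rose, by 0.39 to 0.72, and 1 did not pass (-0.26).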
